A study of Rattus norvegicus with 12 samples.

Results

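The genes described here are the interferon response and antigen presentation genes of the neonatal rat heart. They were chosen by name among the protein-coding genes of the deposited table, as every symbol beginning with RT1-, the interferon regulatory factors, the STAT factors of the interferon pathway, the Ifit, Oas and Mx genes, Isg15, the peptide transporter genes Tap1 and Tap2, Tapbp and Tapbpl, B2m, and the immunoproteasome genes Psmb8, Psmb9 and Psmb10. The rule found 71 genes of 32545 in the table, or of 22293 that are protein coding, and used no expression value. A further 10 entries that match the names but carry another biotype were left out. The 71 members were 24 class I and 10 class II chains of the rat major histocompatibility complex (MHC), which is called RT1, together with B2m, 5 peptide transport and loading entries, 3 immunoproteasome subunits, 9 interferon regulatory factors, 2 STAT factors and 17 antiviral effectors.

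Interferons bind receptors at the cell surface, and the receptor-bound Janus kinases then phosphorylate STAT proteins. The STATs, with IRF9, enter the nucleus and switch on genes that carry interferon response elements. Among those genes are antiviral effectors and the machinery that cuts cytosolic proteins into peptides, moves the peptides into the endoplasmic reticulum and loads them onto MHC class I. Class I with beta-2-microglobulin is found on nearly all nucleated cells, at a low level in resting cardiomyocytes and a higher one in endothelium and leukocytes, whereas class II is mostly a product of macrophages, dendritic cells and B cells.

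The study asked how the RV (right ventricle) of newborn rats differs from the LV (left ventricle) and what volume overload (VO) does to either. Sprague-Dawley (SD) rats were operated on at postnatal day 1 and examined at postnatal day 7. In the VO groups a needle puncture joined the abdominal aorta to the inferior vena cava, which sends extra blood to both ventricles, and the sham groups had a sham operation. Free wall myocardium gave 3 libraries in each of 4 groups, named sham LV, VO LV, sham RV and VO RV, with no genotype difference between them. All groups share the surgery at postnatal day 1, and the labels name neither the sex of the rats nor the rat behind each library, so the p-values below measure the spread between these libraries.

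Bulk poly-A RNA sequencing had been summarised as FPKM, the number of fragments per kilobase of transcript, scaled to library depth. Values were whole multiples of what 1 read is worth, and the reads on genes came to 14121713 to 16871371 per library. Summed cardiomyocyte markers, the check of the labelled tissue, stood at 15263 to 23928 FPKM and were lowest in VO RV 2. The atrial genes Sln and Bmp10 were at 388 and 72.4 FPKM in VO RV 2 and at 97.7 and 12.6 FPKM in sham RV 1, against at most 0.678 and 0.152 FPKM in the other libraries. Summed Y-linked genes were at 56.1 to 64.9 FPKM in sham LV 1 and 2, sham RV 1 and 2 and VO RV 3, and at most at 0.373 FPKM in the rest, including every VO LV library.

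The level of the members spanned the whole range from the most abundant light chain to genes listed at 0. Of the 71 members, 46 had a mean of at least 0.5 FPKM over the 12 libraries and were tested, out of 13910 tested genes. The other 25 lay under that level: Tap2 (1 of 2 entries of that name), Ifit3, Oasl, Oas1k, Oas1a, Oas1i, Oas2, Oas3, Mx1, Irf4, RT1-N2, RT1-M6-1, RT1-A3, RT1-S2, RT1-CE3, RT1-M2, RT1-M5, the class II genes RT1-DMa, RT1-DOa, RT1-DOb and RT1-Ha, and RT1-CE6, Oas1h, Oas1e and Oas1d, the last 4 of which were listed at 0 in all libraries. Within the tested members, B2m had the highest mean at 115 FPKM, followed by RT1-CE16 at 33.5 FPKM and Irf3 at 32.4 FPKM. The antiviral effectors lay low: Ifit2 led them with a mean of 7.20 FPKM, and 11 of 17 were under 0.5 FPKM.

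**Figure D1:**
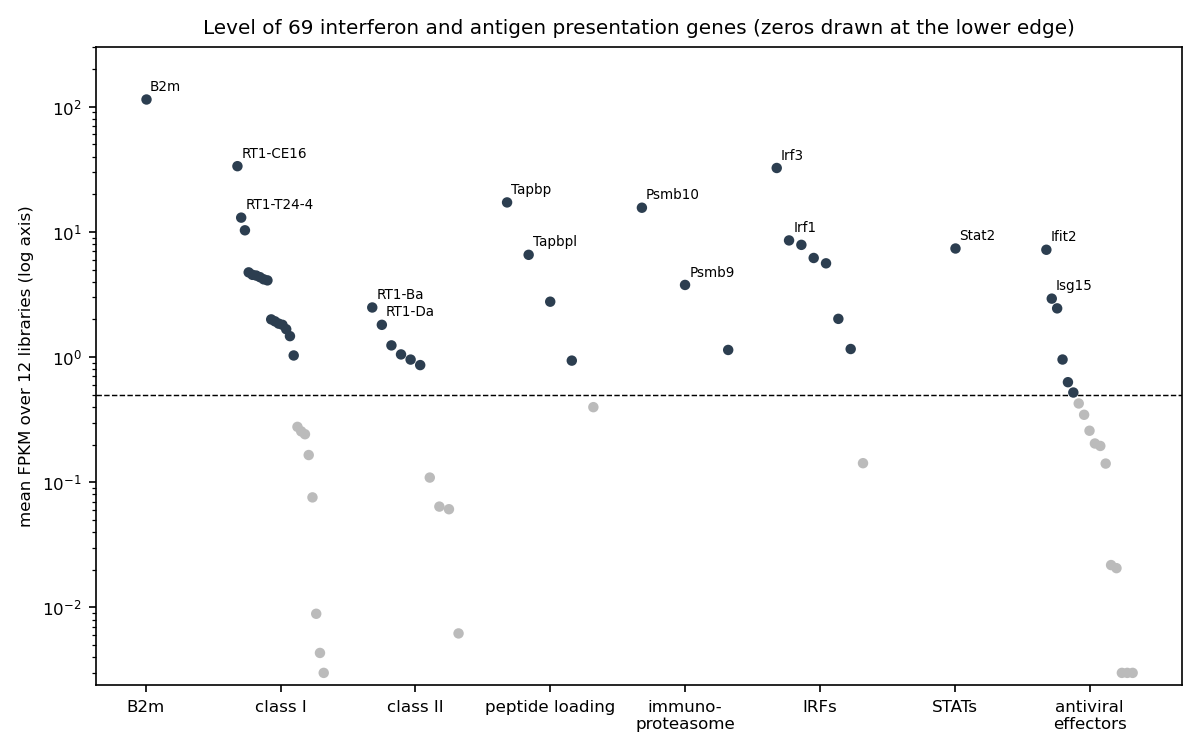
Mean FPKM over the 12 libraries (log axis) of 69 of the 71 members, arranged by role on the x axis. Dark points are 44 tested members, grey points the 25 under the dashed line at 0.5 FPKM, and the genes listed at 0 are drawn at the lower edge. B2m stands highest at 115 FPKM.

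The promoters of several members carry the interferon-stimulated response element, which STAT and IRF proteins bind. RefSeq promoters (build GRCr8, 250 bases before each gene's start) were matched by symbol for 57 of 70 member symbols and searched on both strands for the core of this element, GAAA, then any 2 bases, then GAAA. The core stood in 14 of the 57 promoters (24.6%), against 1140 of all 33469 promoters (3.41%). The core of the gamma-activated site, TTCNNNGAA, stood in 7 of the 57 (12.3%), against 2566 of all promoters (7.67%). The windows of 70 bases below belong to genes whose values are given further on, read 5′ to 3′ on the gene's own strand, with the matched core in capitals. For Tapbp the capitals span a pair of overlapping matches.
B2m, chr3:129549150-129549219, plus strand: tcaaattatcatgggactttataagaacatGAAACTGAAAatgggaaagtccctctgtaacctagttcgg
Tap1, chr20:4668625-4668694, minus strand: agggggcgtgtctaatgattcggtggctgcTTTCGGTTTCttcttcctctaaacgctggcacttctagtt
RT1-S3, chr20:2675386-2675455, plus strand: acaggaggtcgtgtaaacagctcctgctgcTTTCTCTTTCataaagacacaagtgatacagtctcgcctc
Psmb10, chr19:50743326-50743395, minus strand: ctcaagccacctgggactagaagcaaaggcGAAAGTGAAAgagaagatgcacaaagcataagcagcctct
Tapbp, chr20:4967878-4967947, minus strand: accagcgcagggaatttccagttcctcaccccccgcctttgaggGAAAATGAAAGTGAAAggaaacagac
Irf1, gamma-activated site, chr10:38417763-38417832, plus strand: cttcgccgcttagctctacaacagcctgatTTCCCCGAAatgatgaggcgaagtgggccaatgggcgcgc
These positions are those of GRCr8 and are not those of the deposited table, whose build is not given in the sources used here. The Tap1 and Psmb9 starts lie 457 bases apart on opposite strands, so that a window before one lies near the other. The 9 tested members with the response element core had a median log2 difference of 0.36 between sham LV and sham RV, and the 27 matched tested members without it had 0.41. A match is a description of these letters and not a bound site.

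Between the sham ventricles, most of the members had a higher mean level in the LV. Of the 46 tested members, 40 had a higher mean log2 level in the sham LV than in the sham RV, with a median log2 difference of 0.34 against 0.01 over all tested genes. At an unadjusted p under 0.05 and a difference over 1.3-fold (limma), 11 members passed, or 23.9%, all higher in the LV, beside 17.8% of all tested genes in either direction, 8.19% higher in the LV and 9.63% lower. After adjustment over all tested genes 1 member passed in this fit, or 2.17%, beside 3.85% of all tested genes, 1.50% higher and 2.35% lower. That call was lost without any 1 of the 6 sham libraries, or without VO LV 1 or VO LV 2. It was also lost with no filter, with a separate fit of the compared groups, and with either form of replicate block. With each of the 12 libraries left out in turn, RT1-S3, Irf1 and Tap1 passed the unadjusted rule every time, while B2m, Irf3, Psmb10, RT1-T24-3, RT1-A2, RT1-CE2 and RT1-CE4 lost the call at least once. All 3 sham LV libraries lay above all 3 sham RV libraries for 20 of the 46 members, a pattern shown by 15.6% of all tested genes, and below them for 1 member (Tapbpl), against 16.6%. An exact permutation test of 3 against 3 libraries cannot give a p below 0.10, which these members reached.

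In the LV, most of the members had a lower mean level after VO, and none passed after adjustment. Mean log2 levels in the VO LV were below those of the sham LV for 33 of 46 members, with a median log2 difference of -0.27 against -0.02 over all tested genes. The unadjusted rule was passed by 9 members, or 19.6%, all lower in the VO LV, beside 15.7% of all tested genes in either direction, 6.44% lower and 9.27% higher. With adjusted p-values the count was 0 (limma; 1 with voom, limma's method for counts, on reads recovered from the FPKM), beside 0.0935% of all tested genes in either direction, 0.0216% lower and 0.0719% higher. The VO LV libraries lay entirely below the sham LV libraries for 13 members, against 15.7% of all genes, and entirely above them for 1 (Irf7), against 16.7%. The comparison shares its sham LV libraries with the sham LV to sham RV comparison, and sham LV 2 was the highest of the 12 libraries for 20 of the 46 members, against 21.3% of all tested genes. Sham LV 2 also had the lowest mitochondrial share of reads, 14.43% against 26.17% in sham LV 1 and 23.82% in sham LV 3. It had the most genes above 0 (17807), and the part of these traits in the results was not tested. Without sham LV 2, 7 members passed the unadjusted rule between the sham ventricles and 4 in the LV after VO. Without VO LV 3, 2 did so in the LV after VO. The median in the LV after VO was -0.17 without VO LV 3 and -0.19 without sham LV 2. Irf3 passed the unadjusted rule there whichever library was left out, while Irf1, Tap1, Ifit1, RT1-A2, RT1-CE2, RT1-CE4 and RT1-T24-3 each lost the call at least once.

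In the RV, 1 member passed the unadjusted rule between VO and sham. Mean log2 levels in the VO RV were above those of the sham RV for 33 of 46 members, with a median log2 difference of 0.12 against 0.00 over all tested genes. Only Irf5 passed the unadjusted rule, higher in VO RV, or 2.17% of members beside 4.91% of all tested genes in either direction, 1.85% higher and 3.06% lower. With adjusted p-values no member and no gene passed (limma and voom, 0.00% of all tested genes), while 683 genes passed unadjusted. VO RV libraries lay entirely above sham RV libraries for 4 members (B2m, RT1-S3, Tap1 and Irf5), against 5.64% of all genes, and entirely below them for 0, against 6.87%. Without VO RV 3 the median was 0.06, with 26 members above 0 and 20 below, and no member passed the unadjusted rule, and without VO RV 1 or VO RV 2 the count was 3.

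Between the overloaded ventricles, no member passed the unadjusted rule, where 7.40% of all tested genes did, 3.85% higher in the VO LV and 3.56% lower, and none passed the adjusted one (limma and voom), where 0.00719% did. All VO LV libraries lay above all VO RV libraries for 1 member (Irf2), against 8.45% of all tested genes, and below them for 0, against 7.69%. The median log2 difference, VO LV minus VO RV, was -0.03, with 18 members above 0 and 28 below. Without VO RV 3 the median was 0.05 and 1 member passed the unadjusted rule. The smallest unadjusted p in this comparison belonged to Irf2 (log2 difference 0.20 ± 0.10 SE, adjusted p = 0.468, limma) and Irf7 (0.26 ± 0.13 SE, adjusted p = 0.485, and 0.15 without VO RV 1).

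The responses of the ventricles to VO were compared by the difference of the log2 responses, LV minus RV. It was below 0 for 37 of 46 members, with a median of -0.38 against -0.04 over all tested genes. The unadjusted rule was passed by 7 members, or 15.2%, all below 0 (among them B2m, Irf3, Irf9, Tap1, RT1-CE4 and RT1-T24-3), beside 23.1% of all tested genes in either direction, 9.94% below 0 and 13.1% above. No member passed with adjusted p-values (limma and voom), where 4.19% of all tested genes did, 0.733% below 0 and 3.46% above. Without sham LV 2, without VO LV 3 or without VO RV 3, each left out alone, 4 members passed the unadjusted rule. Irf3 passed it whichever library was left out, and B2m, Irf9, Tap1, RT1-CE4 and RT1-T24-3 each lost the call at least once.

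**Figure D2:**
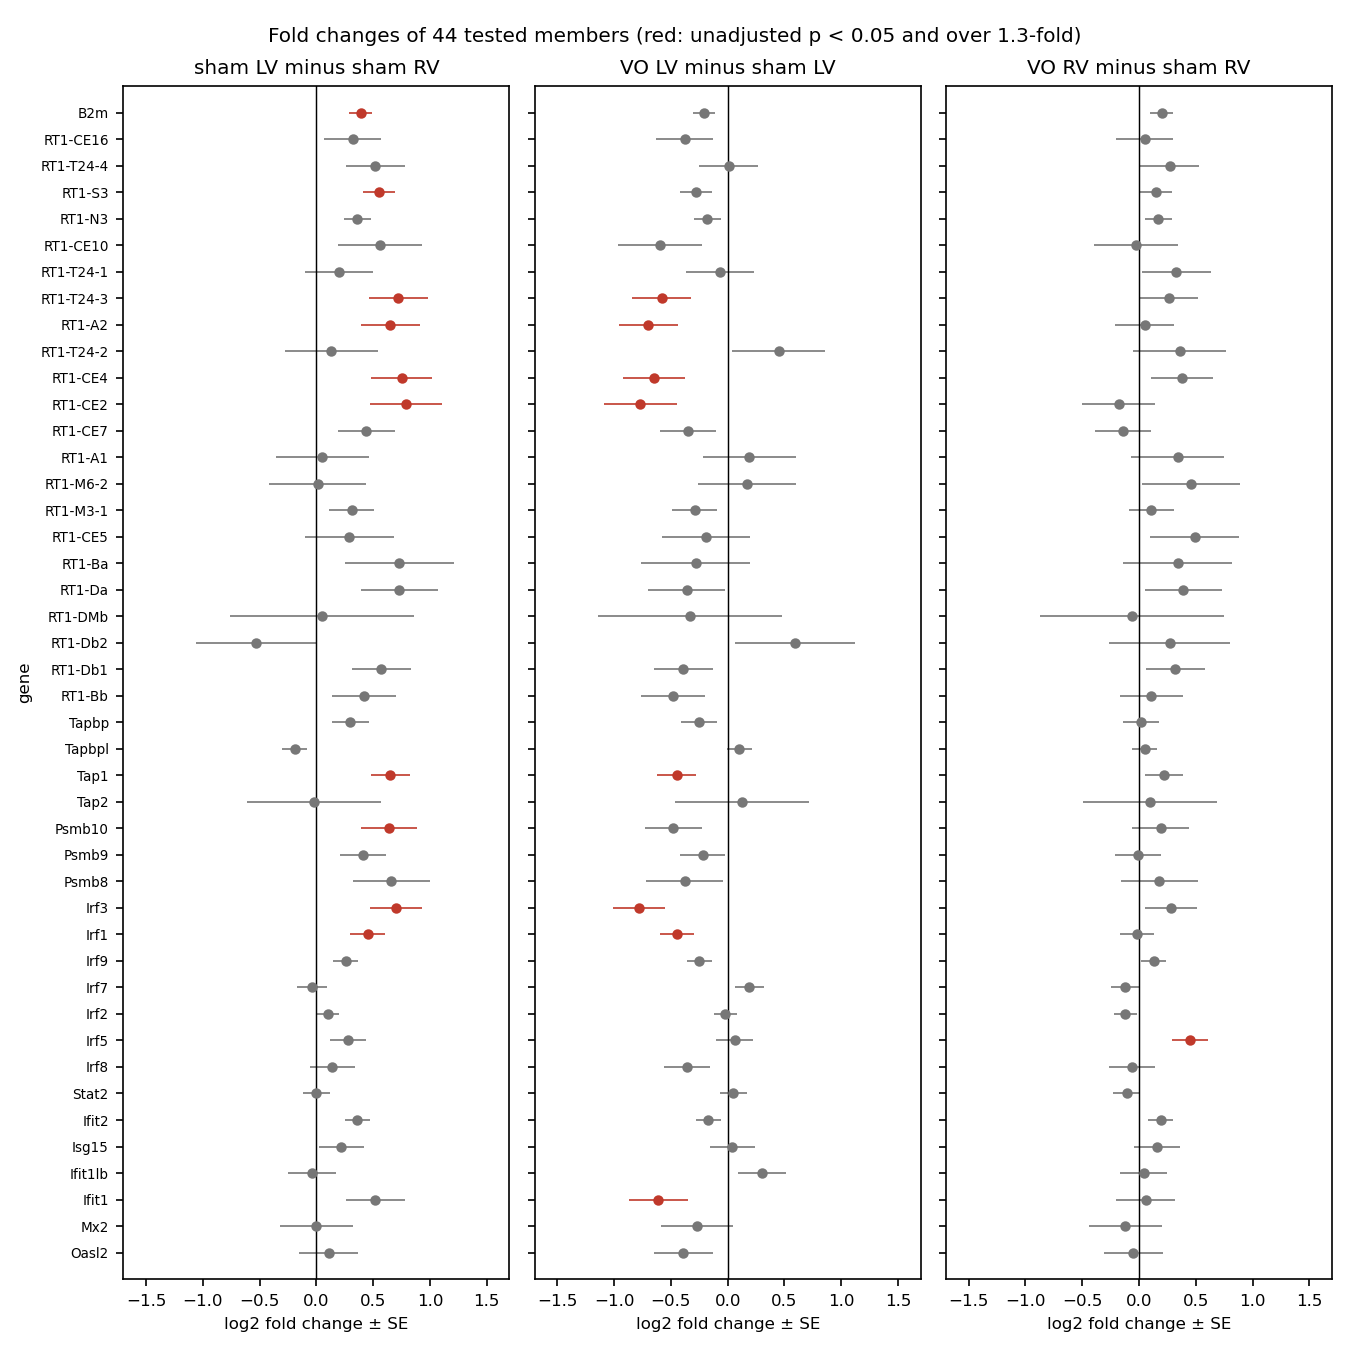
Log2 fold change with its standard error (limma) of 44 of the 46 tested members, for sham LV minus sham RV, VO LV minus sham LV and VO RV minus sham RV. Points in red passed an unadjusted p of 0.05 and 1.3-fold: 10 in the first panel, all above 0, 8 in the second, all below 0, and Irf5 in the third. The first and second panels share the sham LV libraries.

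Among the interferon regulatory factors, Irf3, which nucleic acid sensors activate to start interferon beta transcription, was at 44.9, 54.6 and 33.4 FPKM in the sham LV and at 22.8, 25.3 and 32.6 in the sham RV. It was at 26.9, 30.9 and 18.8 FPKM in the VO LV and at 30.0, 26.8 and 41.8 in the VO RV. The sham LV stood above the sham RV and the VO LV without overlap, although sham LV 3 and sham RV 3 nearly met. Its log2 difference was 0.70 ± 0.23 SE between the sham ventricles (adjusted p = 0.0973), -0.78 ± 0.23 SE in the LV after VO (adjusted p = 0.0923), and -1.06 ± 0.33 SE for the difference of responses (adjusted p = 0.0839), all by limma. Between the VO ventricles it was -0.36 ± 0.23 SE (adjusted p = 0.582), and -0.16 without VO LV 3 or -0.18 without VO RV 3. Irf3 overlaps Bcl2l12 on the opposite strand. Since the strand setting of the counting is not given in the sources used here, reads from the stretch they share may not be told apart.

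Irf1, an early target of interferon gamma that drives MHC class I and immunoproteasome genes, was at 11.0, 11.5 and 10 FPKM in the sham LV and at 7.42, 7.95 and 7.96 in the sham RV. It was at 8.37, 9.36 and 5.95 FPKM in the VO LV and at 6.95, 7.00 and 9.18 in the VO RV. The sham LV libraries lay above all 9 others. The log2 differences were 0.45 ± 0.15 SE between the sham ventricles (adjusted p = 0.103) and -0.45 ± 0.15 SE in the LV after VO (adjusted p = 0.123, limma). Without VO LV 3 the latter was -0.27 and no longer passed the unadjusted rule.

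Irf5, which acts downstream of Toll-like receptors in macrophages, was at 2.30, 1.89 and 1.91 FPKM in the sham LV, and at 1.19, 1.68 and 1.92 in the sham RV. It was at 2.19, 2.23 and 2.0 FPKM in the VO LV and at 1.97, 2.44 and 2.59 in the VO RV. The VO RV lay above the sham RV by a narrow margin, 1.97 against 1.92 FPKM. The log2 difference in the RV was 0.45 ± 0.16 SE (adjusted p = 0.554, limma), and it was 0.30 without sham RV 1, one of the libraries with atrial RNA, and 0.39 without VO RV 3. Irf5 overlaps Tnpo3 on the opposite strand.

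Irf7, which amplifies type I interferon transcription, was at 5.47, 6.28 and 6.18 FPKM in the sham LV and at 7.18, 6.21 and 5.25 in the sham RV. It was at 6.86, 6.41 and 7.34 FPKM in the VO LV, entirely above the sham LV, and at 4.76, 5.79 and 6.48 in the VO RV. Its log2 difference in the LV after VO was 0.19 ± 0.13 SE, which did not pass the test, and its sign was opposite to that of Irf1 and Irf3. Irf7 overlaps Phrf1 on the opposite strand. Irf2, a repressor of interferon-induced genes, was at 5.72, 6.05 and 5.84 FPKM in the VO LV and at 4.78, 4.80 and 5.57 in the VO RV, the only member whose VO LV libraries all lay above the VO RV libraries. In the sham LV Irf2 was at 6.14, 5.43 and 6.38 FPKM and in the sham RV at 5.69, 5.64 and 5.26. Irf9, the DNA-binding partner of the STATs, had means of 8.83 ± 0.774 FPKM in the sham LV, 7.37 ± 0.988 in the VO LV, 7.29 ± 0.440 in the sham RV and 8.03 ± 0.645 in the VO RV (SD, n = 3). Irf8, a factor of monocytes and dendritic cells, lay between 0.753 and 1.51 FPKM in all libraries.

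Stat2, which joins Irf9 in the factor that type I interferon activates, was at 8.03, 6.45 and 8.02 FPKM in the sham LV, at 8.18, 8.14 and 6.93 in the VO LV, at 8.38, 7.32 and 6.71 in the sham RV, and at 6.72, 6.76 and 7.09 in the VO RV. All groups overlapped. The log2 differences of Stat2 were 0.00 ± 0.12 SE between the sham ventricles and 0.16 ± 0.12 SE between the VO ventricles (adjusted p = 0.632, limma).

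**Figure D3:**
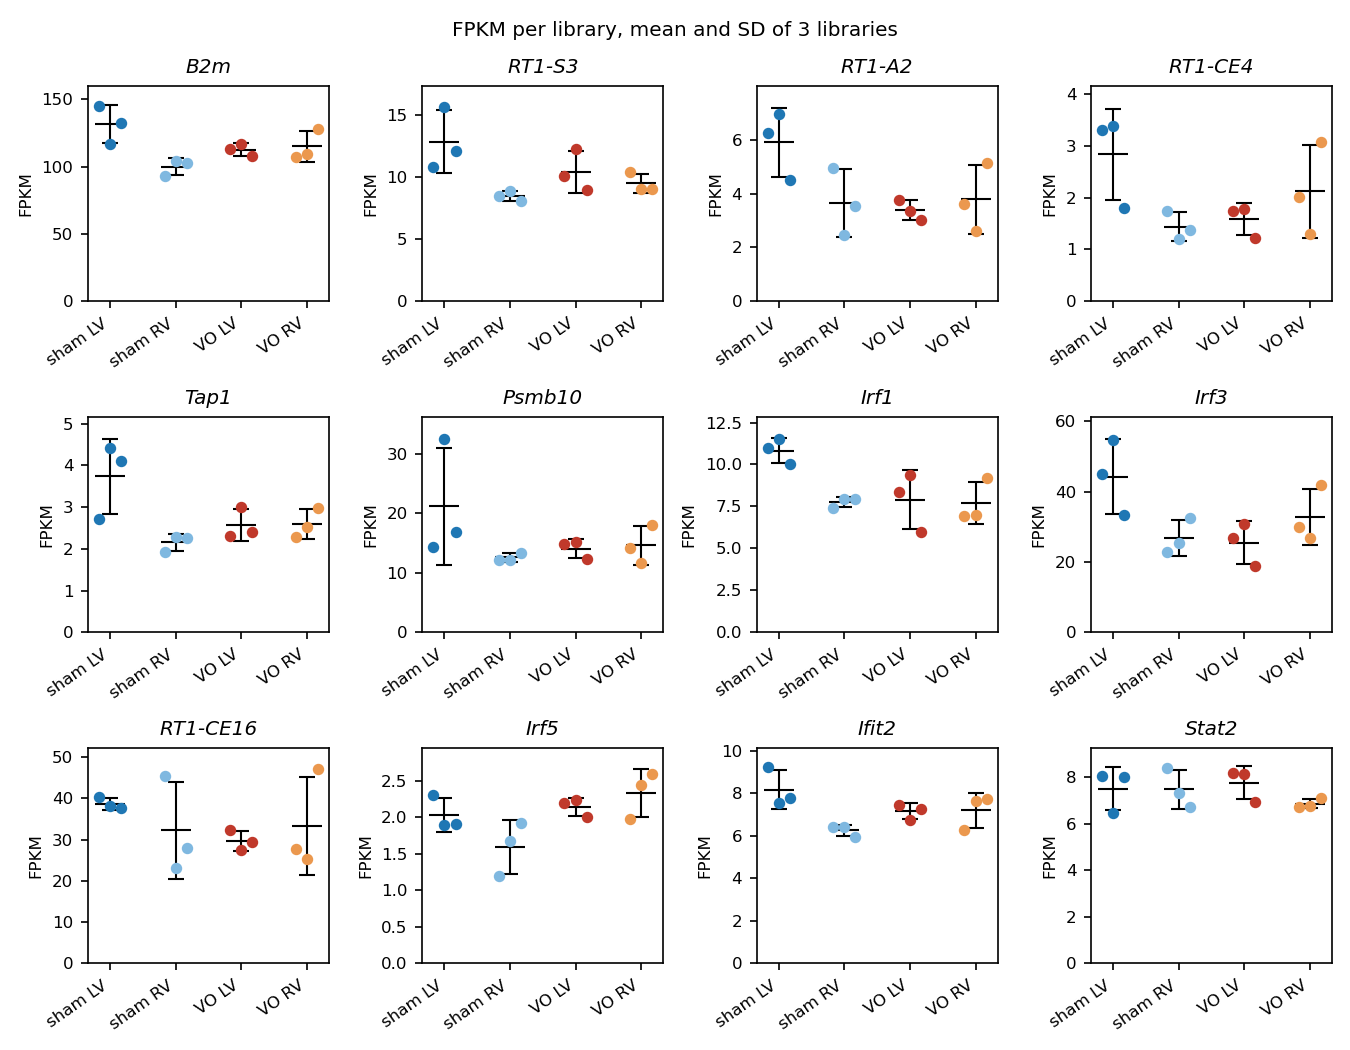
FPKM of 12 members in each library (points), with the mean (bar) and SD of the 3 libraries of each group, on axes that start at 0. The sham LV points of Irf1 lie above all others, the VO RV points of Irf5 lie just above its sham RV points, and all groups overlap for Stat2.

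B2m, the light chain that every class I molecule needs, was at 145, 117 and 132 FPKM in the sham LV and at 92.9, 104 and 103 in the sham RV. It was at 113, 117 and 108 FPKM in the VO LV and at 107, 109.7 and 128 in the VO RV. The sham RV was the lowest group, without overlap with any of the others. The log2 differences of B2m (ENSRNOG00000017123, chr3:114087287-114093309 in the deposited table) were 0.39 ± 0.10 SE between the sham ventricles (adjusted p = 0.0538), -0.21 ± 0.10 SE in the LV after VO (adjusted p = 0.225) and 0.20 ± 0.10 SE in the RV after VO (adjusted p = 0.618, limma). The difference of responses was -0.42 ± 0.14 SE (adjusted p = 0.109). Between the VO ventricles B2m had a log2 difference of -0.03 ± 0.10 SE. Without sham LV 1 the LV response of B2m was -0.14, and without VO RV 3 its RV response was 0.13.

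The class I heavy chains varied with much scatter between libraries. Their summed level was 105 to 123 FPKM in the sham LV, 85.0 to 95.5 in the VO LV, 74.3 to 98.1 in the sham RV and 82.1 to 114 in the VO RV, so that the sham LV lay above the sham RV and the VO LV but met the VO RV. All 16 tested class I chains had a higher mean log2 level in the sham LV than in the sham RV, with a median log2 difference of 0.40, and 5 passed the unadjusted rule as higher (RT1-S3, RT1-T24-3, RT1-A2, RT1-CE2 and RT1-CE4), beside 8.19% of all tested genes. After VO, 12 of the 16 lay below 0 in the LV with a median of -0.29, and 4 of them passed the unadjusted rule as lower (RT1-T24-3, RT1-A2, RT1-CE2 and RT1-CE4), beside 6.44% of all tested genes. In the RV after VO, 13 lay above 0 with a median of 0.22, and none passed.

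RT1-S3, a nonclassical class I chain, was at 10.8, 15.7 and 12.1 FPKM in the sham LV and at 8.46, 8.93 and 8.11 in the sham RV. It was at 10.1, 12.3 and 8.95 FPKM in the VO LV and at 10.4, 9.06 and 9.09 in the VO RV. The sham RV was again the lowest group, below every other library, with 8.93 FPKM in sham RV 2 against 8.95 in VO LV 3. The log2 difference of RT1-S3 (ENSRNOG00000000777, chr20:3176107-3179818 in the deposited table) between the sham ventricles was 0.55 ± 0.14 SE (adjusted p = 0.0540, limma).

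RT1-A2, annotated at the locus of the classical class I chains, was at 6.27, 6.94 and 4.49 FPKM in the sham LV and at 4.96, 2.45 and 3.54 in the sham RV. It was at 3.78, 3.35 and 3.02 FPKM in the VO LV and at 3.62, 2.60 and 5.13 in the VO RV. The VO LV lay below the sham LV without overlap, with a log2 difference of -0.70 ± 0.26 SE (adjusted p = 0.139, limma). Over the alternative settings this difference was -0.87 to -0.45. Its largest adjusted p was 0.497, with the level of Y-linked genes as a covariate (limma). RT1-CE4 was at 3.31, 3.38 and 1.81 FPKM in the sham LV, at 1.74, 1.79 and 1.23 in the VO LV, at 1.74, 1.21 and 1.38 in the sham RV, and at 2.01, 1.29 and 3.07 in the VO RV. Its sham LV 3 and VO LV 2 values were close, 1.81 and 1.79 FPKM. The difference of responses of RT1-CE4 was -1.03 ± 0.38 SE (adjusted p = 0.129), and its log2 difference in the RV after VO was 0.38 ± 0.27 SE (adjusted p = 0.697), which became 0.14 without VO RV 3 and 0.63 without VO RV 2.

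RT1-CE16, the most abundant class I heavy chain, was at 40.4, 38.1 and 37.6 FPKM in the sham LV and at 45.5, 23.2 and 27.9 in the sham RV. It was at 32.2, 27.4 and 29.4 FPKM in the VO LV and at 27.7, 25.3 and 47.0 in the VO RV. The lowest value lay in a sham RV library and the highest in a VO RV library, and only the LV groups were free of overlap. Class I chains are near copies of each other, and how reads that match several of them were counted is not given in the sources used here, so the split between RT1 genes is uncertain. RT1-CE16 also overlaps RT1-A3, RT1-A2 overlaps RT1-A1, RT1-T24-1 overlaps RT1-T24-2, RT1-S3, RT1-N3 and RT1-T24-4 overlap an antisense gene, and the annotated spans of RT1-CE2, RT1-CE4, RT1-CE5 and RT1-CE7 overlap each other. The spans of RT1-CE2, RT1-CE4 and RT1-CE7, whose means were 1.93, 2.0 and 1.85 FPKM, also hold Ddx39b on the same strand, at a mean of 79.4 FPKM.

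The genes that cut, carry and load peptides for class I did not form a uniform group. Tap1, a subunit of the peptide transporter, was at 2.72, 4.41 and 4.10 FPKM in the sham LV and at 1.93, 2.28 and 2.26 in the sham RV. It was at 2.30, 3.0 and 2.41 FPKM in the VO LV and at 2.29, 2.53 and 2.99 in the VO RV. The sham RV again was the lowest group, below every other library, although sham RV 2 at 2.28 FPKM and VO RV 1 at 2.29 nearly met. Tap1 (ENSRNOG00000000457, chr20:3979035-3989669 in the deposited table) had a log2 difference of 0.65 ± 0.17 SE between the sham ventricles (adjusted p = 0.0573), -0.45 ± 0.17 SE in the LV after VO (adjusted p = 0.159) and -0.67 ± 0.25 SE for the difference of responses (adjusted p = 0.126, limma).

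Tapbp encodes tapasin, which holds class I to the transporter. It was at 18.2, 24.2 and 17.2 FPKM in the sham LV, at 16.8, 18.0 and 14.7 in the VO LV, at 15.1, 18.4 and 14.4 in the sham RV and at 13.4, 16.6 and 19.0 in the VO RV. All 4 groups of Tapbp overlapped. Tapbpl, a tapasin-related peptide editor, was the one member whose sham LV libraries (5.55, 5.82 and 6.39 FPKM) all lay below the sham RV libraries (7.06, 6.80 and 6.64 FPKM), with a log2 difference of -0.19 ± 0.11 SE, which did not pass the test.

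The tested Tap2 entry was at 0.0236 FPKM in sham LV 1 and 0.0220 in sham RV 1, and at 0.562 to 2.22 in the other 10 libraries. These differences follow single libraries and not the groups. With both Tap2 entries summed, sham LV 1 was still at 0.0773 FPKM and sham RV 1 at 0.471, against 0.866 to 3.24 in the other libraries. No group difference in Tap2 was read from these values.

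Psmb8, Psmb9 and Psmb10 replace the constitutive catalytic subunits of the proteasome when interferon is present. Psmb10 was at 14.4, 32.5 and 16.8 FPKM in the sham LV and at 12.2, 12.2 and 13.4 in the sham RV. It was at 14.8, 15.2 and 12.3 FPKM in the VO LV and at 14.2, 11.6 and 18.1 in the VO RV. The library sham LV 2 was the highest of the 12 for all 3 subunits. Log2 differences between the sham ventricles were 0.64 ± 0.25 SE for Psmb10 (adjusted p = 0.142, limma), 0.41 ± 0.20 SE for Psmb9 and 0.66 ± 0.34 SE for Psmb8, of which Psmb10 passed the unadjusted rule. That call was lost without sham LV 2, sham RV 1 or sham RV 2, and without sham LV 2 the log2 difference of Psmb10 was 0.29 (unadjusted p = 0.106, limma) and that of Psmb9 0.18. For the LV after VO they were -0.48, -0.22 and -0.38, and none passed, and without sham LV 2 they were -0.14, 0.00 and -0.23. Of the constitutive counterparts, Psmb7, which Psmb10 replaces, was higher in the sham LV by a log2 difference of 0.56 ± 0.09 SE (adjusted p = 0.0319), at 62.0, 69.0 and 61.1 FPKM against 45.6, 44.8 and 39.8 in the sham RV, so its sham LV and sham RV libraries did not overlap either. Psmb5 and Psmb6 did not pass.

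Class II chains were scarce. Their summed level was 8.66 to 11.7 FPKM in the sham LV, 6.19 to 11.5 in the VO LV, 5.19 to 8.42 in the sham RV and 6.76 to 13.1 in the VO RV. Of 10 class II chains, 6 were tested, none passed any rule, and 5 of the 6 had a higher mean log2 level in the sham LV than in the sham RV, with a median log2 difference of 0.49. RT1-Ba, RT1-Da, RT1-Db1 and RT1-Bb had sham LV libraries entirely above the sham RV, a pattern of 15.6% of all tested genes, while the other 2 tested chains, RT1-Db2 and RT1-DMb, overlapped. The means were of 3.10 ± 1.09 against 1.69 ± 0.671 FPKM for RT1-Ba and 2.34 ± 0.412 against 1.25 ± 0.576 FPKM for RT1-Da (SD, n = 3).

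RT1-Db2 pointed the other way, at 0.568 ± 0.422 FPKM in the sham LV and 1.05 ± 0.708 in the sham RV (SD, n = 3), with overlap. RT1-DMb, a chain of the chaperone that exchanges class II peptides, was at 0.121 FPKM in sham LV 3, 0.0981 in VO LV 3, 0.0761 in sham RV 1 and 0.0510 in VO RV 3, and at 1.15 to 2.80 in the other 8 libraries. Every group thus held 1 library with hardly any RT1-DMb reads, and group means of this gene describe no typical library. Cd74, the invariant chain that escorts class II, was far above the chains at 73.0 to 132 FPKM and overlapped between all groups. Ciita, the master regulator of class II, lay at 0.0425 to 0.317 FPKM in all libraries.

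The antiviral effectors were mostly near the lower limit of the test. Ifit2, which binds viral RNA, was at 9.21, 7.54 and 7.75 FPKM in the sham LV and at 6.41, 6.41 and 5.94 in the sham RV. It was at 7.46, 6.75 and 7.27 FPKM in the VO LV and at 6.26, 7.62 and 7.73 in the VO RV. The sham LV lay above the sham RV and the VO LV. The log2 differences of Ifit2 were 0.36 ± 0.11 SE between the sham ventricles (adjusted p = 0.0793), which is under 1.3-fold, and 0.19 ± 0.11 SE in the RV after VO (adjusted p = 0.641, limma).

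Of 6 tested effectors, only Ifit1 passed the unadjusted rule in any comparison. It was lower in the LV after VO, as were 6.44% of all tested genes by the same rule, with a log2 difference of -0.61 ± 0.26 SE (adjusted p = 0.186, limma) and means of 1.38 ± 0.333 and 0.764 ± 0.404 FPKM in the sham LV and VO LV (SD, n = 3), and the difference was -0.38 without VO LV 3. Isg15, a ubiquitin-like protein that is joined to other proteins after interferon, lay between 1.95 and 3.90 FPKM, with overlap in every comparison. Mx2 and Oasl2 lay between 0.200 and 1.28 FPKM, and their VO LV libraries lay below all sham LV libraries, as for 15.7% of all tested genes, with log2 differences of -0.27 ± 0.32 SE and -0.39 ± 0.26 SE that did not pass the test and were -0.12 and -0.21 without sham LV 2. Mx1, which was not tested, was at 0.712 FPKM in sham RV 1 and 0.553 in sham RV 2 and at most at 0.216 in the other libraries.

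**Figure D4:**
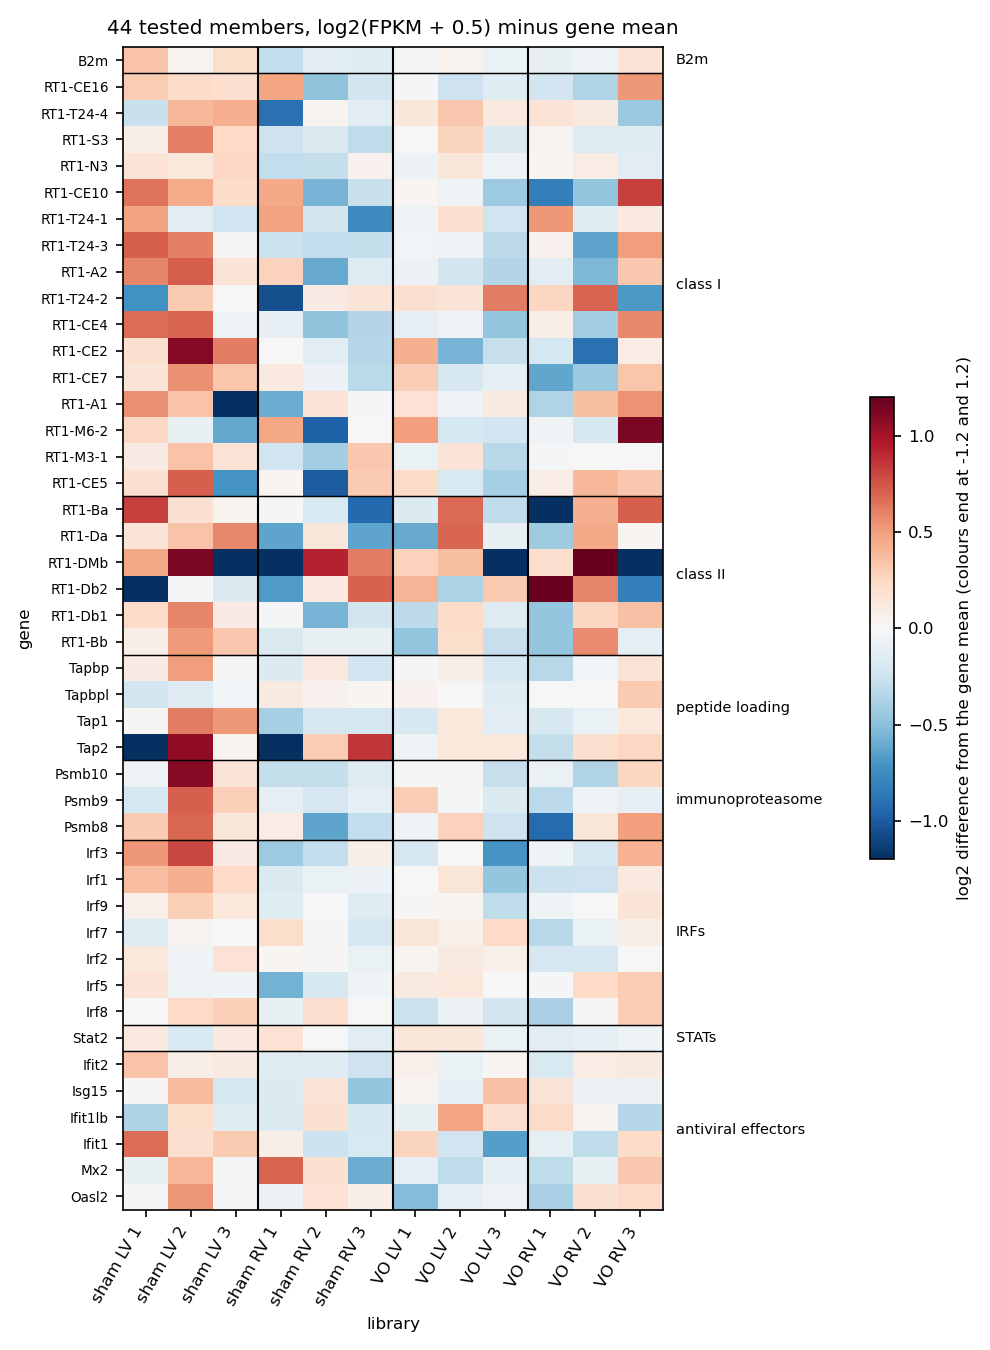
Log2(FPKM + 0.5) of 44 of the 46 tested members in the 12 libraries, minus the gene's mean over the libraries, in rows ordered by role and level. Sham LV 2 is red in most rows, and RT1-DMb and Tap2 show isolated dark blue libraries in several groups.

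Seen over the groups, the highest mean lay in the sham LV for 32 of the 46 tested members, where 36.5% of all tested genes had theirs, and in the sham RV for 2, where 22.6% had theirs. The VO LV held the highest mean of 5 members and the VO RV that of 7, against 21.5% and 19.5% of all tested genes. The lowest mean lay in the sham RV for 23 members, against 25.3% of all tested genes, in the VO LV for 11, against 25.5%, in the VO RV for 8, against 17.5%, and in the sham LV for 4, against 31.7%. These are counts over means of 3 libraries, in which neighbours such as VO LV and VO RV differ by less than the spread of the libraries for most members.

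Genes upstream of the members were read from lists of known pathway genes. Ifnb1, Ifne and Ifnl3 were listed at 0 in all libraries, Ifng was above 0 in 3 libraries (at most 0.510 FPKM) and Ifnk in 2 (at most 0.139 FPKM), whereas the receptor genes were well expressed, with means of 20.2 FPKM for Ifnar1, 15.6 for Ifnar2, 45.6 for Ifngr1 and 11.5 for Ifngr2. The ligand genes Ifna1 and Ifnl1 had no entry under these symbols and were not examined. No ligand or receptor gene of the 6 tested passed a rule between any 2 groups. Ifnar2, a chain of the type I receptor, had log2 differences of 0.24 ± 0.09 SE between the sham ventricles (adjusted p = 0.114) and -0.29 ± 0.09 SE in the LV after VO (adjusted p = 0.0872, limma). Ifngr2, a chain of the interferon gamma receptor, had -0.30 ± 0.13 SE and 0.37 ± 0.13 SE in the same comparisons (adjusted p = 0.168 and 0.126). For the difference of responses, Ifngr2 alone of the 6 passed the unadjusted rule, at 0.48 ± 0.18 SE (adjusted p = 0.131), where 13.1% of all tested genes passed above 0.

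Of 11 signal transducers and brakes, Ptpn11, a phosphatase with many targets that include the STATs, was lower in the sham LV, with a log2 difference of -0.47 ± 0.12 SE (adjusted p = 0.0498). It was at 29.2, 29.8 and 34.4 FPKM in the sham LV, at 39.6, 39.6 and 45.8 in the VO LV, at 44.8, 40.6 and 44.6 in the sham RV, and at 39.6, 36.7 and 29.4 in the VO RV. Its responses to VO differed between the ventricles by 0.72 ± 0.17 SE (adjusted p = 0.0418, limma), since the VO LV lay above the sham LV and the VO RV below the sham RV. Ptpn6 and Socs1, which damp cytokine signals in leukocytes, passed the unadjusted rule between the sham ventricles as higher in the LV, at 0.51 ± 0.18 SE and 0.48 ± 0.19 SE (adjusted p = 0.115 and 0.150). Of the 11, these 2 passed as higher and 1, Ptpn11, as lower, beside 8.19% and 9.63% of all tested genes.

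Other interferon-induced genes that are not members were tested as a list of 48. Between the sham ventricles 40 of the 48 had a higher mean log2 level in the LV (median log2 difference 0.28), 15 passed the unadjusted rule as higher and 1 as lower, beside 8.19% and 9.63% of all tested genes, and 3 passed the adjusted rule as higher, beside 1.50%. No gene in the table passed the adjusted rule between the sham ventricles without sham RV 1, so the adjusted calls given here for genes outside the members also end there. The 3 genes were Bst2, which tethers budding virus to the cell, at 0.93 ± 0.20 SE (adjusted p = 0.0373), Rsad2, which makes an antiviral nucleotide, at 0.67 ± 0.15 SE (adjusted p = 0.0423), and its neighbour Cmpk2, a mitochondrial nucleotide kinase, at 0.63 ± 0.13 SE (adjusted p = 0.0364, limma). Bst2 was at 49.7, 77.4 and 59.7 FPKM in the sham LV and at 34.2, 24.1 and 38.9 in the sham RV. Rsad2 was at 5.71, 7.84 and 6.04 FPKM in the sham LV and at 3.67, 3.88 and 4.13 in the sham RV. Cmpk2 was at 3.71, 4.16 and 3.25 FPKM in the sham LV and at 2.22, 2.49 and 1.95 in the sham RV. For all 3 genes the sham ventricles did not overlap.

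Of the 48, 39 had a lower mean log2 level in the LV after VO (median -0.21), with 6 past the unadjusted rule as lower and 1, Ppm1k, as higher (log2 difference 1.00 ± 0.28 SE, adjusted p = 0.0802), beside 6.44% and 9.27% of all tested genes. In the RV after VO, 36 had a higher mean (median 0.11) and 1 passed the unadjusted rule, Parp9, as higher at 0.64 ± 0.18 SE (adjusted p = 0.541), beside 1.85% of all tested genes. Of 15 nucleic acid sensors and adaptors, 3 passed the unadjusted rule in the LV after VO, all lower, beside 6.44% of all tested genes. They were Tlr7, at -0.47 ± 0.19 SE, Ikbke, at -0.55 ± 0.23 SE, and Tmem173, which encodes STING, at -0.44 ± 0.19 SE (adjusted p = 0.177, 0.184 and 0.191, limma). Ikbke, a kinase that phosphorylates Irf3 and Irf7, passed it in the RV after VO as higher, at 0.55 ± 0.23 SE (adjusted p = 0.579), and its responses differed by -1.09 ± 0.32 SE (adjusted p = 0.0742).

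Among 12 antigen processing genes, Ctss, the cathepsin that degrades the invariant chain, alone passed the unadjusted rule in the LV after VO, at -0.65 ± 0.20 SE (adjusted p = 0.101, limma), where 6.44% of all tested genes passed as lower. It was at 7.75, 7.72 and 7.73 FPKM in the sham LV, at 5.43, 4.20 and 4.62 in the VO LV, at 4.89, 6.05 and 4.76 in the sham RV, and at 4.14, 8.39 and 7.07 in the VO RV. Of 8 genes of the class II pathway and its regulators, 1 passed the unadjusted rule between the sham ventricles, Creb1, lower in the sham LV at -0.59 ± 0.17 SE (adjusted p = 0.0719), beside 9.63% of all tested genes, and none in the LV or RV after VO.

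Markers of other cell types also differed in level between the groups. Summed macrophage and dendritic cell markers were at 156 to 173 FPKM in the sham LV, 121 to 156 in the VO LV, 118 to 128 in the sham RV and 125 to 184 in the VO RV. Of the 17 tested, 4 passed the unadjusted rule as higher in the sham LV, beside 8.19% of all tested genes, 1 as lower in the LV after VO, beside 6.44%, and 7 as higher in the RV after VO, beside 1.85%, and 16 of 17 had a higher mean in the sham LV and 16 in the VO RV. Xcr1, which defines a dendritic subset, was at most at 0.0729 FPKM and Flt3 at most at 0.211. For the difference of responses, C1qb, a complement gene of macrophages, was at -0.92 ± 0.22 SE (adjusted p = 0.0440) and Laptm5 at -0.72 ± 0.17 SE (adjusted p = 0.0422, limma), the 2 of 17 past the adjusted rule, beside 0.733% of all tested genes below 0.

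Summed lymphocyte markers were at 12.7 to 14.2 FPKM in the sham LV, 9.54 to 10.9 in the VO LV, 8.99 to 11.7 in the sham RV and 9.16 to 13.7 in the VO RV, with Gzmb at 0 in all libraries but sham LV 2 (0.0799 FPKM) and Cd3e at most at 0.304 FPKM. Cd79a, a B cell receptor chain, was higher in the sham LV than in the sham RV by 1.06 ± 0.23 SE (adjusted p = 0.0387), the only 1 of 5 tested lymphocyte markers past the adjusted rule, beside 1.50% of all tested genes. Granulocyte and mast cell markers were at 36.2 to 45.6, 24.4 to 39.2, 22.2 to 23.5 and 24.7 to 36.6 FPKM in the same order. S100a8 was higher in the sham LV by 1.14 ± 0.26 SE (adjusted p = 0.0418, limma), the only 1 of 6 tested past the adjusted rule, beside 1.50%. Of these 6, 4 passed the unadjusted rule as higher in the sham LV, beside 8.19% of all tested genes.

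Endothelial markers were at 594 to 645, 459 to 513, 425 to 454 and 426 to 545 FPKM in that order, and 4 of 9 tested (Esam, Tie1, Emcn and Kdr) passed the adjusted rule as higher in the sham LV, beside 1.50% of all tested genes. In the LV after VO all 9 had a lower mean log2 level, and 3 passed the unadjusted rule, beside 6.44%. Red blood cell markers were at 13345 to 17280, 8652 to 13760, 6753 to 11333 and 6704 to 15117 FPKM in that order. All 7 tested had a higher mean in the sham LV, and 6 passed the unadjusted rule as higher, beside 8.19%. Fibroblast markers were at 2777 to 2955, 2212 to 2728, 2991 to 3882 and 2738 to 5240 FPKM, and thymus markers at 5.22 to 8.55 over all libraries, with Foxn1 at 0 in all but sham LV 2. Of 9 tested cardiomyocyte markers, 7 had a higher mean log2 level in the LV after VO (median log2 difference 0.38), where 3 passed the unadjusted rule as higher, beside 9.27% of all tested genes, and 1 as lower, beside 6.44%. Between the sham ventricles 4 had a higher mean in the LV and 5 a lower one (median -0.09), with 1 past the unadjusted rule as higher (Tnni3, log2 difference 0.57 ± 0.20 SE, adjusted p = 0.104) and 3 as lower (Myh6, Myh7 and Ryr2), beside 8.19% and 9.63%. Ryr2, the calcium release channel, had log2 differences of -0.94 ± 0.19 SE between the sham ventricles (adjusted p = 0.0356) and 0.91 ± 0.19 SE in the LV after VO (adjusted p = 0.0534, limma). The part of these cells in the results on the members was not tested, and in bulk tissue more cells of a type cannot be told apart from more RNA per cell.

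**Figure D5:**
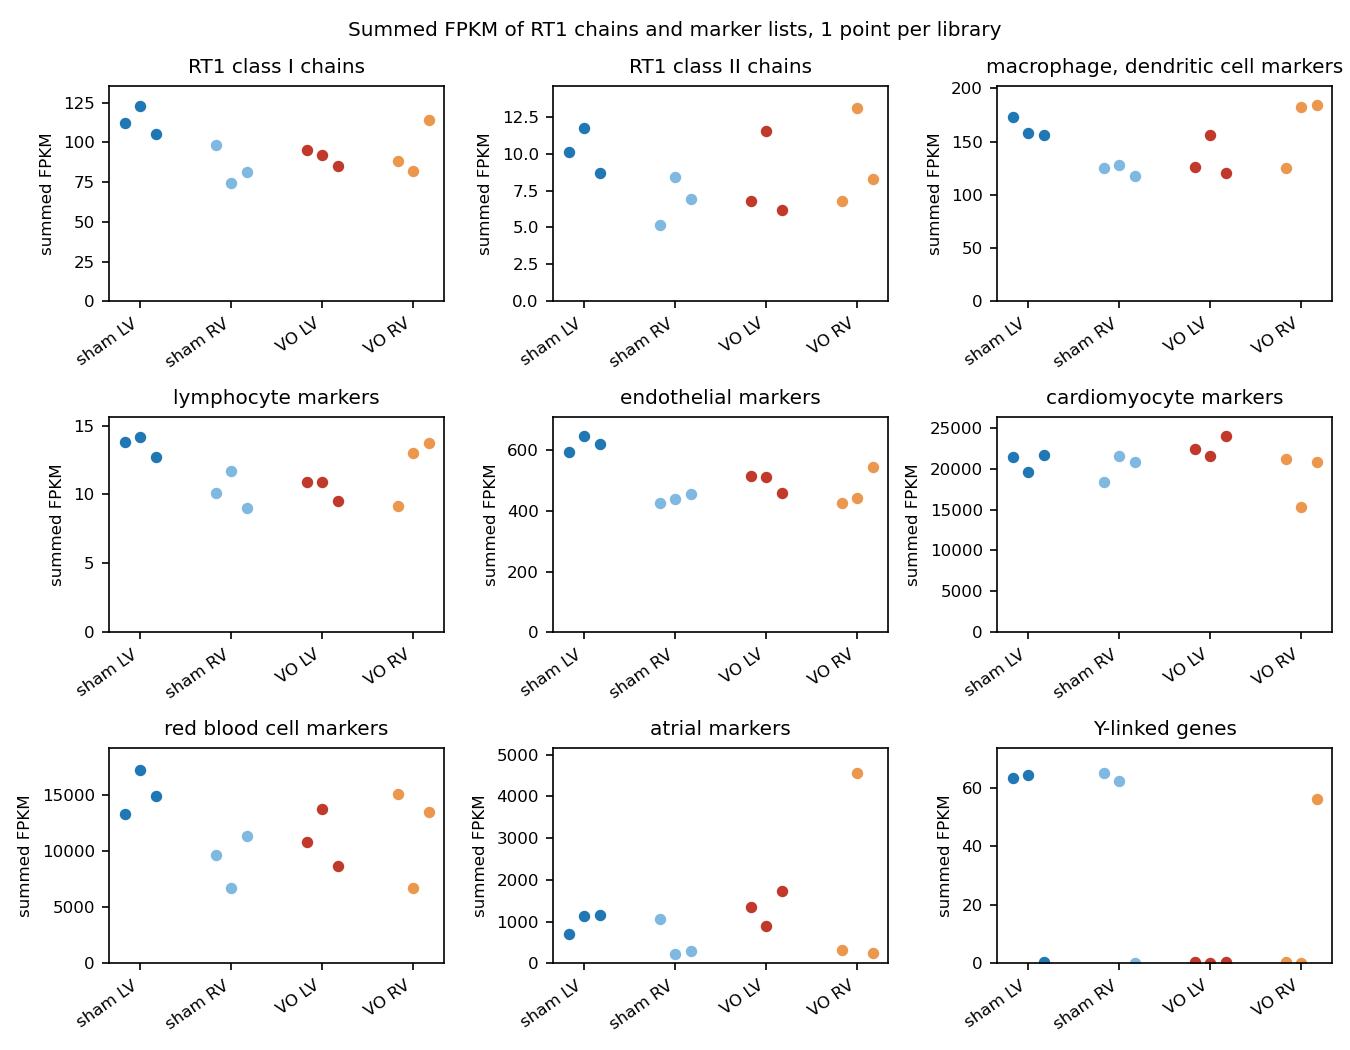
Summed FPKM of the class I and class II chains and of 7 marker lists, with 1 point per library, on axes that start at 0. The sham LV points of the macrophage, lymphocyte and endothelial lists all lie above the sham RV points, VO RV 2 stands apart for atrial markers at 4559 FPKM, and 5 libraries hold Y-linked RNA, none of them VO LV.

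Gene length and the Y-linked RNA also went with the groups. Over all tested genes, the median log2 difference of sham LV minus sham RV was 0.15 in the shortest 25% of genes and -0.08 in the longest 25%, and the members' median length was 2010 bases against 2165.5 over all tested genes. With the trend over length removed, 13 members passed the unadjusted rule between the sham ventricles and 9 in the LV after VO. The part of gene length in the results was otherwise not tested. With the level of Y-linked genes as a covariate, 12 passed between the sham ventricles, and 2 in the LV after VO with a median of -0.17. The part of the sex of the rats in the LV response cannot be told apart from VO in full, since no VO LV library held Y-linked RNA.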

How the data were processed

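Free wall myocardium of 12 SD rat libraries was analysed, 3 in each of 4 groups taken from the labels. Per the study's methods, poly-A libraries were made with the NEBNext Ultra kit, aligned with HISAT2 (2.0.5) and counted per gene with featureCounts (1.5.0-p3), and the authors deposited FPKM per gene. Genome build, annotation release, strand setting and treatment of multiply mapped reads are not given in the sources used here, and RNA extraction is named differently in the labels and the methods. All value columns were mapped to samples. Reads recovered from the FPKM steps were whole to within 0.02 for 100% of values under 200 reads. They came to 14121713 to 16871371 per library, which sets counting error only.

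FPKM were divided by median-ratio size factors (0.996 to 1.00), and log2(FPKM + 0.5) of the 13910 genes with a mean of at least 0.5 was fitted with limma (3.58.1, R 4.3.3; trend) in 1 model of the 4 groups with 5 contrasts. Fold changes on this scale understate the change of low genes. P-values were adjusted by Benjamini-Hochberg over all tested genes. The thresholds were those of the study, an adjusted p of 0.05 and 1.3-fold, and the unadjusted p of 0.05 with 1.3-fold is given as a description beside its share of all genes. Single members were also compared by a two-sided exact permutation test. The fit was tested on simulated data.

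Values in every library are given for each member past the adjusted rule, the 5 with the smallest p in each comparison and the most abundant of each role. Of the other lists, genes past the adjusted rule and up to 3 per list and comparison with an unadjusted p under 0.05 could be named. Single-library values of Tapbpl, Tap2, RT1-DMb and Mx1, and the levels of Cd74, Ciita, interferon and receptor genes, Xcr1, Flt3, Cd3e, Gzmb and Foxn1, go beyond that rule and were chosen after their values were seen. The members and lists were chosen with earlier results of these data known. Alternatives varied scaling, pseudocount, filter, fit, replicate block, recovered reads and the omission of each library. All members entered the fit and the counts, but some results of single members are not reported here and those members are not drawn in the figures.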

Additional observations from a re-analysis of the deposited data

Results flagged for a closer look

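Of the 177 tested genes of the supporting lists, 6 (3.39%) responded to VO differently in the LV and the RV by the test of the difference itself (limma, adjusted p under 0.05 and over 1.3-fold). The difference of the log2 responses, LV minus RV, was -0.92 for C1qb, -0.72 for Laptm5, 0.72 for Ptpn11, 0.89 for Myh6, 1.18 for Myh7 and 1.61 for Ryr2. Of these, C1qb and Laptm5 came from the macrophage and dendritic cell list, Ptpn11 is a signalling phosphatase, and Myh6, Myh7 and Ryr2 are cardiomyocyte genes. Over all tested genes 4.19% passed, so the share in the lists was not above that background. Only 1 gene of the table passed with the replicate block, 21 passed with no filter, and 0 passed without sham LV 1, sham LV 2, sham RV 1, VO LV 2 or VO LV 3, each left out alone. No interferon or antigen presentation member passed this test.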

How the results depend on the processing

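Of the 25 log2 differences recomputed for single members under the alternatives, none reversed. Others lay near 0, and that of B2m between the VO ventricles was -0.07 to 0.05 and that of Stat2 between the sham ventricles -0.07 to 0.10 when 1 library was left out. Between the VO ventricles the median of the members, -0.03 with 18 above 0 and 28 below, was 0.05 with 28 above and 18 below without VO RV 3, and 0.01 with 24 above and 22 below without VO LV 3 or with the Y-linked covariate. The count of members past the adjusted rule between the sham ventricles was 1, and it became 2 with quantile normalization, 3 with limma's voom on recovered reads, and 0 with no filter, with a separate fit of the compared groups, with the replicate block or with the replicate block within operation, and 0 to 2 when 1 library was left out; the unadjusted count of 11 became 7 to 15 when 1 library was left out and 16 with a separate fit. In the LV after VO the unadjusted count of 9 became 2 (without VO LV 3) to 10, and 4 without sham LV 2; the adjusted count of 0 became 1 with voom and 0 to 1 when 1 library was left out (1 without VO RV 3). In the RV after VO the unadjusted count of 1 became 0 with a pseudocount of 1, 2 with no filter (1 higher and 1 lower), 0 with a separate fit, and 0 to 3 when 1 library was left out. Between the VO ventricles the unadjusted count of 0 became 0 to 1 (1 without VO RV 3). For the difference of responses the unadjusted count of 7 became 4 to 10, and the adjusted count of 0 became 0 to 1 (1 without VO RV 2). In alternatives chosen after seeing the data, a Y-linked covariate gave unadjusted counts of 2 in the LV and 2 in the RV after VO; removing the length trend moved no count of members by over 1.5 times. Where the alternative used fewer libraries or more genes this is part of its construction, and otherwise the cause was not tested.

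Over all genes, the adjusted count between the sham ventricles was 536, and it was 8 with no filter, 314 with a separate fit, and 0 without sham RV 1 to 872 without VO RV 3. In the LV after VO the adjusted count of 13 was 341 with voom, 183 with a minimum mean of 1 FPKM, 119 with a separate fit, 56 with a pseudocount of 0.1 and 5 with no filter or the length trend removed, and 0 with the Y-linked covariate. For the difference of responses, 583 became 0 without sham LV 1, sham LV 2, sham RV 1, VO LV 2 or VO LV 3, each left out alone, 21 with no filter and 176 with the Y-linked covariate.

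The replicate numbers are shared between groups. Deviations of same-numbered libraries from their group means correlated at -0.28 to 0.12, and at 0.04, 0.04 and 0.12 between the sham ventricles. VO RV 3 held Y-linked RNA while VO LV 3 did not. In the sham groups Y-linked RNA went with the number, at 63.2, 64.2 and 0.342 FPKM in the LV and 64.9, 62.4 and 0.191 in the RV. The tested Tap2 entry was near 0 in sham LV 1 and sham RV 1 only. Whether same-numbered sham libraries share a rat is not given, and the main fit did not take the numbers as pairs. With the replicate block, the adjusted members between the sham ventricles were 0, with 3 genes called in all, and 0 with 106 genes with the replicate block within operation. In the LV after VO, 3 and 188 genes were called, and 1 and 246 for the difference of responses.

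Among single members, B2m passed the adjusted rule between the sham ventricles with voom (adjusted p = 0.0496) and without VO RV 3 (adjusted p = 0.0390), RT1-S3 with quantile normalization (adjusted p = 0.0462) and Tap1 with voom (adjusted p = 0.0453). The 25 members under 0.5 FPKM were left out by the filter, and without it 67 members were fitted.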
